A study of Mus musculus with 4 samples.

Results

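The Sonic hedgehog signalling genes described here are 8 genes, Shh, Ptch1, Smo, Gli2, Gli3, Boc, Hhip and Sufu, taken by name from the tables that pair Sp6 binding intervals with genes. They are 8 of 21627 protein-coding genes. Their intervals number 6 of the 2381 epithelium intervals that have a listed gene, and 20 of the 7211 in mesenchyme. Sp6 (epiprofin) is an SP/KLF zinc-finger protein that binds DNA and is required for teeth to form normally. Its binding was mapped with ChIP-seq in the dental epithelium and the dental mesenchyme of 30 molars of newborn C57BL/6 mice on postnatal day 1, with a Sp6 antibody made in house. The groups were Sp6 epithelium, input epithelium (no antibody), Sp6 mesenchyme and input mesenchyme, with 1 library each, so no value here has a replicate error and no test between tissues was possible. The tissue of each library was taken from its title and source, and a list of binding intervals gives no direct check of it. The genes were chosen by their role in the pathway with the listing, the peak values and the tissue overlap of their intervals already known, so counts of listed genes describe them and support nothing.

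Hedgehog ligands are secreted proteins that bind the receptor Ptch1. Binding frees the transducer Smo from inhibition by Ptch1 at the primary cilium, and the GLI zinc-finger factors then switch target genes on, while Sufu holds GLI proteins back. In the tooth germ Shh is made by the dental epithelium, including the enamel knot, and signals within the epithelium and to the mesenchyme beneath it. Ptch1 and Hhip are themselves targets of the pathway and limit it by binding the ligand.

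Promoter sequence is shown for 3 of the genes, because their intervals lay at different distances from the start. Ptch1 had intervals beside its start, Gli2 had one 5 kb inside the gene, and Gli3 had its strongest interval far inside the gene. Each window of 300 bases runs from 250 bases before to 50 after a RefSeq start on GRCm38.p6. It is at chr13:63565686-63565985 on the minus strand for Ptch1, at chr1:119053570-119053869 on the minus strand for Gli2 and at chr13:15463473-15463772 on the plus strand for Gli3. The intervals are on mm9, so a window was not placed inside an interval, and the start used in the deposited tables may be another one. Capitals mark the GC box (GGGCGG) and the CACCC box (CCACCC) on either strand, motifs that SP/KLF factors are known to bind.
Ptch1: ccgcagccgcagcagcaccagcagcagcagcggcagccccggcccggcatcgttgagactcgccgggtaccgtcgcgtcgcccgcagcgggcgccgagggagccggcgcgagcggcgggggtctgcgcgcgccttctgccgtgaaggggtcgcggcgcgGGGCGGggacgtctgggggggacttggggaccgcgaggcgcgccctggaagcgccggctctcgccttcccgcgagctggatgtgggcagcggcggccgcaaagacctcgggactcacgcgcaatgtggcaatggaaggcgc
Gli2: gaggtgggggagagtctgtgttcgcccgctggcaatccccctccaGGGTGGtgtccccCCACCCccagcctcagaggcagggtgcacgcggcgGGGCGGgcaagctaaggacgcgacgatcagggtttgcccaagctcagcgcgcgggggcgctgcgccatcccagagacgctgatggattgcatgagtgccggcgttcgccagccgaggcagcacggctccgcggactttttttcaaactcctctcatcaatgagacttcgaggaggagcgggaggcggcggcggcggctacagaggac
Gli3: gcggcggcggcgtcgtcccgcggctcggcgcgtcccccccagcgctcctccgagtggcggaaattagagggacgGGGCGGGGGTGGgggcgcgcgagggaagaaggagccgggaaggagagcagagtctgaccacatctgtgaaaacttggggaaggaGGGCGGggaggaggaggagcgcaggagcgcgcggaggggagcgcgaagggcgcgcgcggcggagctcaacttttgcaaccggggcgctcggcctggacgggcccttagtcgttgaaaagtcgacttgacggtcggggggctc

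Windows were found for 6 of the 8 genes (Ptch1, Smo, Gli2, Gli3, Hhip and Sufu). The GC box was in 5 of these 6 windows, all but that of Smo, and in 46.7% of 21044 windows of protein-coding genes. The CACCC box was in 4 of the 6, those of Smo, Gli2, Gli3 and Hhip, and in 33.8% of all windows. In a wider list of hedgehog pathway genes, which includes the 8, the GC box was in 32 of 44 windows and the CACCC box in 12. The GLI motif (GACCACCCA, whose letters contain the CACCC box) was in 0 of the 6 and in 0.181% of all windows. The Ptch1 window had 1 GC box, no CACCC box, a GC content of 76.3% and 47 CpG dinucleotides, while the median GC content of all windows was 56.7%. GC content was 67.7% at Smo, 67.3% at Gli2, 71.0% at Gli3, 73.7% at Hhip and 56.3% at Sufu. The motif counts were not corrected for it. A match of letters describes the window and does not show a bound site.

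In epithelium 5 of the 8 genes had a listed interval (Ptch1, Gli2, Gli3, Boc and Sufu), and in mesenchyme all 8 did. Over all protein-coding genes 8.92% were listed in epithelium, 21.4% in mesenchyme and 8.24% in both tissues, against 5 of the 8 genes in both. Long genes are listed more often, and the median RefSeq length was 82.9 kb for the 8 genes and 17.3 kb for all protein-coding genes. All genes were split into 10 equal groups by length. The share listed in epithelium was 4.99% for the length group of Shh, 8.04% for that of Smo, 16.2% for that of Ptch1, Boc, Hhip and Sufu and 31.2% for that of Gli2 and Gli3. In mesenchyme those shares were 14.2% for the length group of Shh, 22.1% for that of Smo, 37.4% for that of Ptch1, Boc, Hhip and Sufu and 57.4% for that of Gli2 and Gli3. The tables list a gene for intervals from 10 kb upstream of its start to past its end.

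All 6 epithelium intervals of these genes overlapped a mesenchyme interval by at least 1 bp, and 87.4% of all epithelium intervals with a listed gene did. Of the 20 mesenchyme intervals, 6 overlapped an epithelium interval and 14 did not, where 28.7% of all mesenchyme intervals with a listed gene overlapped one. The share depends on how many weak intervals are kept: it was 6 of 8 with mesenchyme reduced to as many of its highest intervals as epithelium has, and 5 of 10 in the top 50% of each list. The same shares over all genes were not computed, so these counts cannot be set beside 28.7%. Over all genes too, mesenchyme intervals with a counterpart were stronger, with a median peak value of 58 against 30 without. None of the 6 epithelium and none of the 20 mesenchyme intervals touched an interval of either input, which held 17 intervals in epithelium and 24 in mesenchyme. Over all genes, only 13 of 3811 epithelium and 14 of 11436 mesenchyme intervals touched one. The inputs hold too few intervals for this to serve as a background check. The signal of an interval is the peak value deposited by the authors, which is the density of fragments in its tallest bin. It ran from 22 to 55 with a median of 36 in the 6 epithelium intervals, and from 14 to 137 with a median of 36.5 in the 20 mesenchyme intervals. The medians over all intervals with a listed gene were 27 in epithelium and 34 in mesenchyme. How the libraries were scaled is not given in the sources used here, so a ratio between tissues is one of deposited values only.

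**Figure D1:**
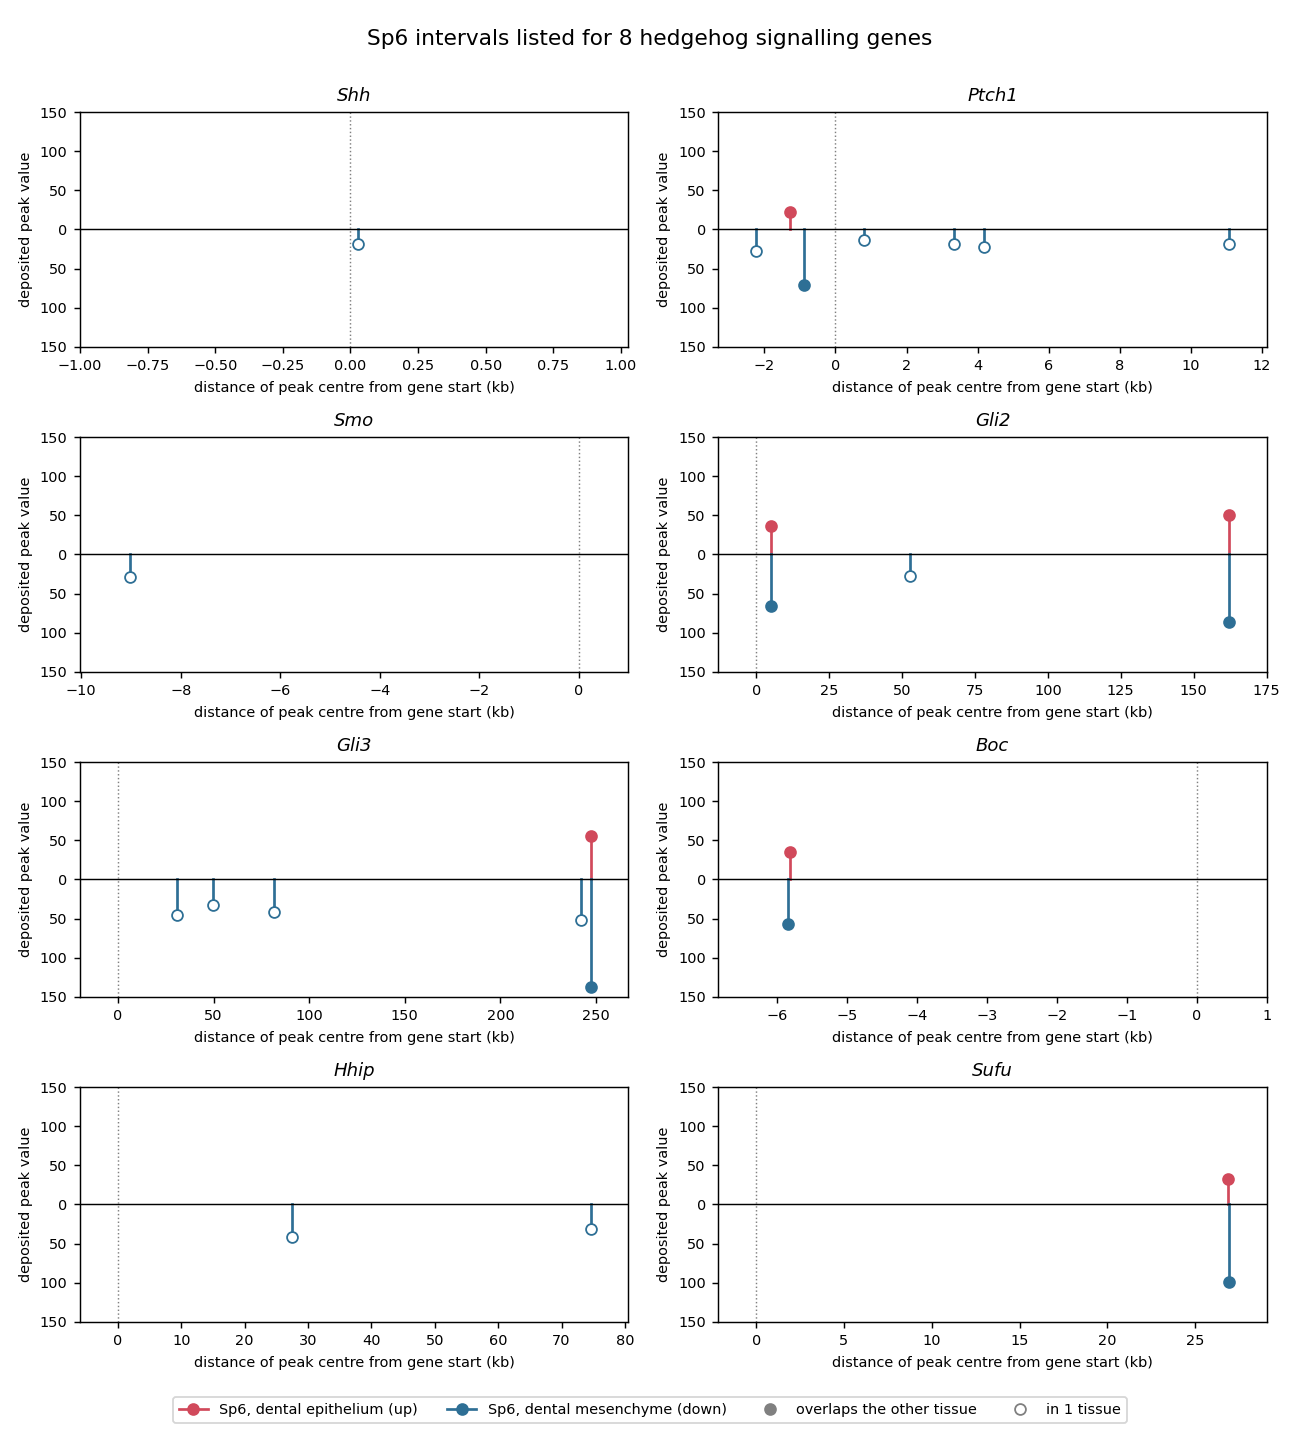
Each panel shows the Sp6 intervals listed for 1 gene, with the distance of the peak centre from the gene start in kb on the horizontal axis and the deposited peak value on the vertical axis, epithelium upward and mesenchyme downward. Filled points overlap an interval of the other tissue; Gli3 has the highest value in both tissues (55 in epithelium and 137 in mesenchyme), and Shh, Smo and Hhip have points in mesenchyme only.

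Shh, the ligand gene, had no listed interval in epithelium. In mesenchyme it had 1 interval on its start, at chr5:28793342-28793811, with the peak centre 28 bp inside the gene. This interval was weak, with a peak value of 18, and 4.8% of mesenchyme intervals with a listed gene had a lower one. It was 470 bp long, lay on a CpG island (a CpG-rich stretch found at many promoters) and was resolved by the authors into 3 peaks.

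Sp6 intervals were also found on the side of Shh that holds Rnf32 and Lmbr1. Distant enhancers of Shh are known to lie on that side, among them a limb enhancer inside Lmbr1. Between the Shh interval and the nearer Lmbr1 interval (chr5:28793812-29640576, 846.8 kb) there were 4 epithelium and 13 mesenchyme intervals. Windows of this length laid end to end over the genome held a median of 1 epithelium and 3 mesenchyme intervals. Of 3094 such windows, 9.24% had at least 4 epithelium intervals and 2.91% had at least 13 mesenchyme intervals. The ends of the span were set by the intervals themselves after their positions were seen, so these shares describe it and test nothing.

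Of the 17 intervals in that span, only the 1 mesenchyme interval inside Rnf32 was paired with a gene in the tables, and for the others no peak value is known. Both tissues had an interval at the same place 3 times, at 275.4, 377.9 and 380.7 kb from the Shh peak centre. The first is chr5:29068740-29069232 in epithelium and chr5:29068590-29069510 in mesenchyme. The next is chr5:29171229-29171683 in epithelium and chr5:29171178-29171908 in mesenchyme, and the last is chr5:29173962-29174598 in epithelium and chr5:29173941-29174720 in mesenchyme. The remaining epithelium interval, at 609.4 kb (chr5:29402766-29403231), overlapped no mesenchyme interval. The remaining 10 mesenchyme intervals lay from 86.2 to 738.5 kb from the Shh peak centre and overlapped no epithelium interval. Positions of known Shh enhancers on mm9 were not used here, so no interval was matched to one.

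Of the neighbours of Shh, Lmbr1, Rnf32 and Rbm33 had listed intervals in mesenchyme, and no neighbour had one in epithelium. Over all protein-coding genes 21.4% were listed in mesenchyme and 8.92% in epithelium. Lmbr1 had mesenchyme peak values of 42 at 64.0 kb inside the gene and 32 at 5314 bp inside it. Rnf32 had 1 mesenchyme interval with a peak value of 28 at 9766 bp inside the gene. Rbm33, on the other side of Shh, had mesenchyme peak values of 27 and 35 at 43803 and 50955 bp inside the gene. Nom1, Mnx1, Cnpy1 and En2 had no listed interval in either tissue.

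**Figure D2:**
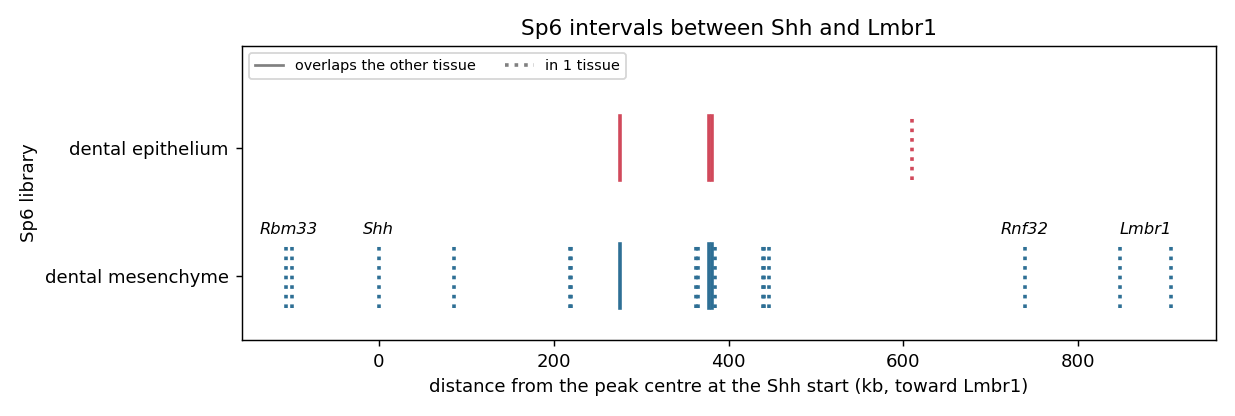
Vertical marks are Sp6 intervals by their distance in kb from the peak centre at the Shh start, in epithelium (upper row) and mesenchyme (lower row), with the listed gene named where there is one. Solid marks overlap the other tissue: epithelium has 4 marks between Shh and Lmbr1, 3 of them solid, and mesenchyme has 13, with 3 solid.

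Ptch1, the hedgehog receptor and a target of the pathway, had the most mesenchyme intervals of the 8 genes. In epithelium it had 1 interval upstream of its start, at chr13:63667449-63668383, with a peak value of 22 and the peak centre 1284 bp upstream. In mesenchyme it had 6 intervals between chr13:63655501 and 63670450, which together covered 8252 bp, or 55.2%, of a span of 14.95 kb.

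The strongest of the 6 mesenchyme intervals was the one that overlaps the epithelium interval, at chr13:63667256-63668515, with a peak value of 71 at 884 bp upstream of the start. The next interval upstream had a peak value of 27 at 2228 bp upstream. Inside the gene, peak values were 14 at 812 bp from the start, 18 at 3324 bp, 22 at 4172 bp and 18 at 11068 bp. Thus 1 interval stood out and the other 5 were weak, between 14 and 27, below the mesenchyme median of 34.

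The Ptch1 intervals were also wide. They were 956 to 1845 bp long in mesenchyme, where the median over all intervals with a listed gene was 632 bp and 7.86% were at least 956 bp long. The epithelium interval was 935 bp long, where the median was 543 bp. In mesenchyme 4 of the 6 lay on a CpG island, as did the epithelium interval, while 8.45% of mesenchyme and 4.2% of epithelium intervals with a listed gene did. Of all protein-coding genes, 91 (0.421%) had at least 6 mesenchyme intervals. Only 3 genes (0.0139%) had 6 mesenchyme intervals within 15 kb, and these were Ptch1, Col1a1 (a type I collagen gene) and Ctnna2 (alpha-N-catenin). The limit of 15 kb was chosen after the span at Ptch1 was seen. Gaps between the neighbouring intervals at Ptch1 ran from 90 to 5305 bp. How far the count of 6 depends on the splitting of nearby intervals was not tested.

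**Figure D3:**
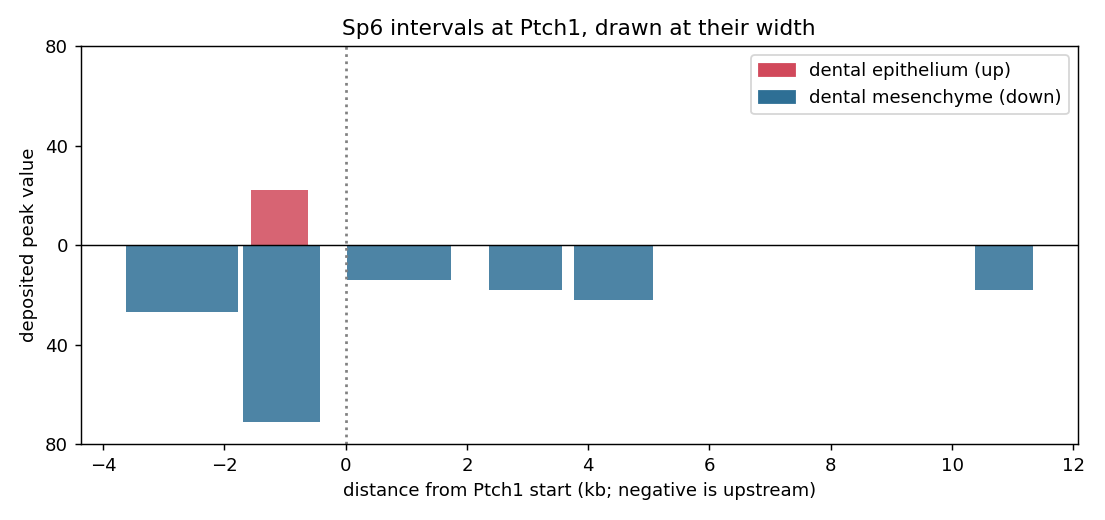
Bars are the Sp6 intervals at Ptch1, drawn at their width in kb from the gene start (negative is upstream), with the deposited peak value as height, epithelium upward and mesenchyme downward. The single epithelium interval (22) lies over the strongest mesenchyme interval (71), and the other 5 mesenchyme intervals reach 14 to 27.

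The co-receptor Boc, an immunoglobulin superfamily protein that presents the ligand to Ptch1, had 1 interval upstream of its start at the same place in both tissues. In epithelium it was chr16:44564537-44565030 with a peak value of 35 at 5817 bp upstream, and in mesenchyme chr16:44564463-44565038 with 57 at 5833 bp upstream. Of the intervals with a listed gene, 69.3% in epithelium and 79.7% in mesenchyme had a lower value.

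Smo, the transducer that Ptch1 inhibits, had no epithelium interval and 1 mesenchyme interval at chr6:29676212-29676827, with a peak value of 29 at 9023 bp upstream. This interval is near the 10 kb limit of the tables and is also listed for Tspan33, a tetraspanin gene. Hhip, which binds hedgehog ligands at the cell surface and blocks them, had no epithelium interval and 2 mesenchyme intervals inside the gene. Their peak values were 42 at 27.428 kb from the start (chr8:82554257-82554682) and 31 at 74.58 kb (chr8:82507025-82507693). Shh, Smo and Hhip were thus listed in mesenchyme alone, with highest mesenchyme peak values of 18, 29 and 42. The mesenchyme list is longer, with 7211 intervals that have a listed gene against 2381 in epithelium. With mesenchyme reduced to as many of its highest intervals as epithelium has, Shh, Smo and Hhip were no longer listed.

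The highest peak values of the 8 genes lay inside Gli3 and Gli2 in epithelium and inside Gli3, Sufu and Gli2 in mesenchyme. Gli3, which acts mainly as a repressor of hedgehog targets, had 1 epithelium interval at chr13:15802350-15803122, with a peak value of 55 at 247.132 kb from its start. At the same place mesenchyme had its highest value of the 8 genes, 137 at 247.164 kb (chr13:15802335-15803363), and 97.6% of mesenchyme intervals with a listed gene had a lower one. In epithelium 88.7% had a lower value than 55.

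Mesenchyme had 4 more Gli3 intervals, none of which overlapped an epithelium interval. Their peak values were 45 at 30.748 kb, 32 at 49.548 kb, 41 at 81.66 kb and 52 at 242.012 kb from the start. At least 5 mesenchyme intervals were listed for 0.781% of protein-coding genes and for 6.47% of genes in the same length group as Gli3. The 5 intervals at Gli3 were spread from 30.748 to 247.164 kb from the start.

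Gli2, the main activator among the GLI factors, had 2 epithelium intervals, and both overlapped a mesenchyme interval. Deep inside the gene, epithelium had a peak value of 50 at 162.068 kb from the start (chr1:120787879-120788487) and mesenchyme had 86 at 162.036 kb (chr1:120787704-120788490). Nearer the start, epithelium had 37 at 4980 bp (chr1:120945043-120945444) and mesenchyme had 66 at 4996 bp (chr1:120945054-120945567). Mesenchyme alone had another, weaker interval, with 27 at 52.852 kb. Gli1, the other GLI factor and a widely used target gene of the pathway, had no listed interval in either tissue.

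Sufu, the inhibitor that holds GLI proteins in the cytoplasm, had 1 interval at the same place inside the gene in both tissues. In epithelium it had a peak value of 33 at 26.896 kb from the start (chr19:46498152-46498584), and 64.8% of intervals with a listed gene had a lower one. In mesenchyme it had 99 at 26.928 kb (chr19:46498138-46498734), and 94.2% had a lower one. By highest peak value the genes were ordered Ptch1, Sufu, Boc, Gli2 and Gli3 in epithelium, at 22, 33, 35, 50 and 55. In mesenchyme the order was Shh, Smo, Hhip, Boc, Ptch1, Gli2, Sufu and Gli3, at 18, 29, 42, 57, 71, 86, 99 and 137. With 1 library per tissue there is no spread to say which neighbours in these orders differ.

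Counted by interval, 2 of 6 had their peak centre near the gene start (5 kb or less) in epithelium. The count was 7 of 20 for mesenchyme, and 5 of these 7 belonged to Ptch1. Among all intervals with a listed gene, the shares were 20.6% for epithelium and 23.6% for mesenchyme. Within 5 kb of the start, epithelium had an interval at 2 of the 8 genes (Ptch1 and Gli2) and mesenchyme at 3 (Shh, Ptch1 and Gli2), while 2.03% and 6.76% of protein-coding genes had one. At Gli2 the centre was just inside the 5 kb limit in both tissues, at 4980 and 4996 bp, and at Boc it was just outside, at 5817 and 5833 bp. Within 1 kb epithelium had 0 of the 8 genes and mesenchyme had 2, Shh and Ptch1. Of the 6 epithelium intervals 4 were inside genes and 2 upstream, and of the 20 mesenchyme intervals 16 were inside genes and 4 upstream. Of all intervals with a listed gene, 77.1% in epithelium and 76.0% in mesenchyme were inside a gene. The tables name no exons or introns, so intervals inside genes were not assigned to either.

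Each of the 6 pairs of overlapping intervals had a lower deposited peak value in epithelium than in mesenchyme, as did 93.9% of 2083 pairs over all genes. The log2 ratio of epithelium to mesenchyme had a median of −1.08 over the 6 pairs and −0.97 over all pairs, with an interquartile range of −1.35 to −0.58 over all pairs. It was −0.70 at Boc, −0.78 at the deep Gli2 interval, −0.83 at the Gli2 interval near the start, −1.32 at Gli3, −1.58 at Sufu and −1.69 at Ptch1. A lower ratio was found in 9.89% of all pairs for Ptch1 and in 13.1% for Sufu. The other 4 pairs were within the interquartile range.

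The peak centres of the paired intervals lay 16 or 32 bp apart at Boc, Gli2, Gli3 and Sufu, where the median over all pairs was 32 bp. At Ptch1 they lay 400 bp apart although the intervals overlap, and 1.25% of all pairs had a gap of at least 400 bp. The epithelium interval of Ptch1 lay wholly within the mesenchyme interval and was resolved into 2 peaks by the authors, the mesenchyme interval into 1. The 14 mesenchyme intervals with no epithelium counterpart had a median peak value of 28 and a highest value of 52, and the 6 with a counterpart had a median of 78.5. Over all mesenchyme intervals with a listed gene, the medians were 30 without and 58 with a counterpart.

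**Figure D4:**
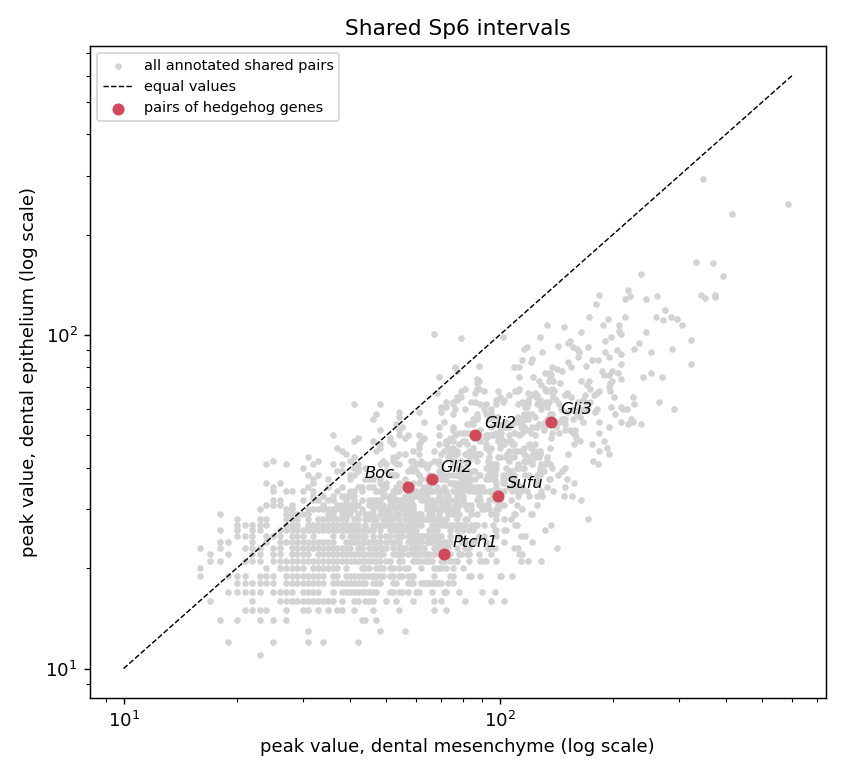
Each point is a pair of overlapping Sp6 intervals, with the deposited peak value in epithelium on the vertical axis and in mesenchyme on the horizontal axis, both on a log scale. The 6 pairs of hedgehog genes (red) lie below the line of equal values, with Gli3 at 55 and 137 and Ptch1 at 22 and 71 in epithelium and mesenchyme.

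A wider list of 56 hedgehog pathway genes, which includes the 8, had a listed interval at 13 genes in epithelium and 23 in mesenchyme, and the 13 of epithelium were all among the 23. Without the 8 genes, 8 of 48 were listed in epithelium and 15 in mesenchyme, and their median RefSeq length was 37.1 kb. The background over all protein-coding genes is 8.92% in epithelium and 21.4% in mesenchyme, as above. With 1 library per tissue no test was made of the list. The wider list was also chosen with earlier results of these data known, so its counts describe it and support nothing.

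Among genes that make and release the ligand, Hhat and Scube2 were listed in both tissues, 2 of 6. Hhat, the acyltransferase that attaches palmitate to the ligand, had an epithelium peak value of 17 at 25.34 kb from its start. In mesenchyme it had 56 at 172.86 kb and 23 at 123.36 kb, so its intervals in the 2 tissues did not overlap. Scube2, a secreted protein that helps release the ligand, had 23 in epithelium and 35 in mesenchyme, past the gene at about 70.8 kb from its start. Ihh and Dhh, the other ligands, had no listed interval in either tissue.

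Among 9 receptors and co-receptors, 3 were listed in epithelium (Ptch1, Boc and Gpc3) and 6 in mesenchyme, Smo and Hhip among them. Without Ptch1, Smo, Boc and Hhip, which were chosen with their listing known, 1 of 5 was listed in epithelium and 2 of 5 in mesenchyme. Over all protein-coding genes the shares were 8.92% and 21.4%. The wider list that holds these 5 was also chosen with earlier results known. Gpc3, a glypican that competes with Ptch1 for the ligand, had 27 in epithelium at 55.03 kb from its start and 39 in mesenchyme at 55.07 kb. Mesenchyme had 2 more Gpc3 intervals, each with a peak value of 21.

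Of 16 regulators, 5 were listed in epithelium and 11 in mesenchyme. Without Sufu, 4 of 15 were listed in epithelium and 10 of 15 in mesenchyme, beside 8.92% and 21.4% of all protein-coding genes. Long genes are listed more often, and the regulators were not compared with genes of like length. Mtss1, an actin-binding protein reported to enhance GLI-dependent transcription, had 35 in epithelium and 134 in mesenchyme at about 121.8 kb from its start. Mesenchyme had 3 more Mtss1 intervals, with peak values of 19, 24 and 38. Tulp3, which carries receptors into the cilium, had 25 in epithelium and 59 in mesenchyme at 9997 bp from its start. A second pair inside Tulp3 had 24 in epithelium and 33 in mesenchyme. Spop, a ubiquitin ligase adaptor for GLI proteins, had 23 in epithelium and 36 in mesenchyme at about 19.8 kb. Mesenchyme had another Spop interval, on a CpG island, with 17 at 763 bp from the start.

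Gpr161, a ciliary receptor that represses the pathway, had 14 in epithelium and 20 in mesenchyme at about 16.1 kb, and 1.09% of epithelium and 9.12% of mesenchyme intervals with a listed gene had a lower value. Rab23, a small GTPase that restrains the pathway, had no epithelium interval and 3 mesenchyme intervals, with 25 at 699 bp from its start, 24 at 1595 bp and 47 past the gene at 31.58 kb. The last one is also listed for Bag2. The other 5 regulators listed in mesenchyme alone had highest peak values from 19 to 37. Of 9 cilium genes, Arl13b, a ciliary GTPase, was listed in both tissues, with 60 in epithelium and 95 in mesenchyme at 18951 bp from its start. That interval is also listed for Stx19, so it cannot be given to 1 gene. Mesenchyme had a second Arl13b interval, with 28 at 903 bp from the start, also listed for Pros1. None of the 10 genes fixed as targets (Ccnd1, Ccnd2, Bcl2, Foxf1, Foxf2, Foxl1, Foxe1, Foxm1, Osr1 and Nkx2-1) had a listed interval in either tissue. With 8.92% of all protein-coding genes listed in epithelium and 21.4% in mesenchyme, 10 genes are too few to read this as a lack. Ptch1 and Hhip, which are also targets and had intervals, were counted among the receptors.

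**Figure D5:**
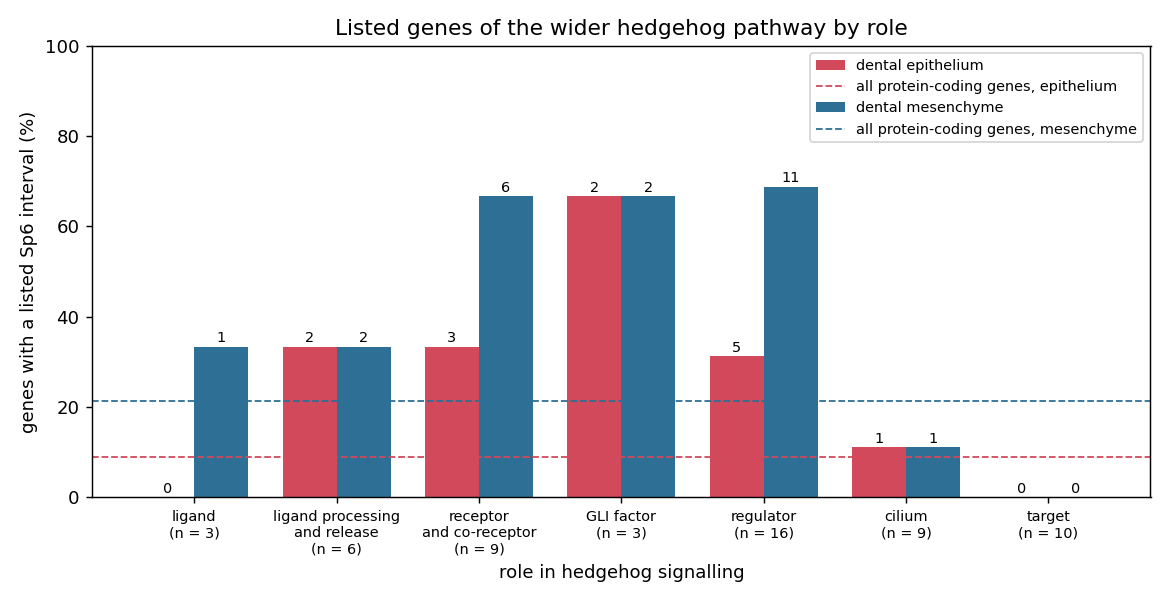
Bars give the percentage of genes in each role of the wider hedgehog list with a listed Sp6 interval, epithelium left and mesenchyme right, with the number of listed genes above each bar. Dashed lines give the share of all protein-coding genes, 8.92% in epithelium and 21.4% in mesenchyme; the 8 genes are included in their roles (Ptch1 and Hhip as receptors), none of the 10 genes in the target role is listed, and 5 regulators in epithelium and 11 in mesenchyme are.

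The genes whose highest peak values were closest to the medians of the 5 genes listed in both tissues, 35 in epithelium and 86 in mesenchyme, were Borcs6, Tmem107 and Apc among 1783 genes listed in both. Borcs6 and Tmem107 each had 35 in epithelium and 86 in mesenchyme, and Apc had 35 in epithelium and 87 in mesenchyme. The values of Borcs6 and Tmem107 come from the same intervals, which are listed for both and touch an interval of the mesenchyme input. Likeness was the distance on the log2 scale over these 2 libraries, which is too few to order genes finely.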

How the data were processed

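Samples were grouped by title into 4 groups of 1 library. Per the submitters' processing notes, reads were handled on mm9 and MACS 1.3.7.1 was used. The sources used here do not give the aligner, thresholds, scaling or use of the inputs. The authors deposited a list of intervals for each library and, for each Sp6 library, a table of genes with the signal of each interval (a peak value in its highest bin and an average value over bins). Per the file headers, other columns hold positions, lengths, CpG islands and the signed distance to a gene start. Read totals are unknown, so no counting interval is given for a peak value. Starts were moved by 1 to count from 1.

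The members and lists were chosen with earlier results of these data known. Genes are named by a rule: the 8 members, genes sharing their intervals, genes of the wider list listed in both tissues or with the up to 4 highest values of a role, the neighbours of Shh, and 3 genes of most similar values. Values of 1 gene of the wider list are not reported here. Col1a1, Ctnna2 and genes without an interval were named after their values were seen. Gene names were matched by symbol or synonym to RefSeq genes (GRCm38.p6), 1999 of 2239 names in epithelium and 4816 of 5391 in mesenchyme. Gene lengths and promoter windows are RefSeq's on that build. An overlap of 1 bp or more made 2 intervals shared. The overlap step was tested on simulated intervals. Python 3.11.15, pandas 2.3.3, numpy 2.4.6 and matplotlib 3.10.9 were used. Alternatives changed the name match, peak threshold, interval number, overlap, window, input intervals and signal measure.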

Additional observations from a re-analysis of the deposited data

How the results depend on the processing

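Of 43 recomputed values, 33 stayed within 1.5 times of the reported count, or at the same log2 value, and 10 moved. Some of the 33 were fixed in advance and show no stability. Leaving out intervals that touch an input could change nothing, because no interval of the 8 genes or the wider list touched one. The 8 genes were taken by exact name, so matching by exact name could not lower their counts. No median changed sign. With the top 50% of intervals by peak value, 1 gene in epithelium had an interval within 5 kb of its start, 6 genes of the wider list were listed in epithelium and 15 in mesenchyme, and the median log2 ratio (epithelium over mesenchyme) was −0.83. With mesenchyme reduced to as many of its highest intervals as epithelium has, 5 of the 8 genes and 10 of the wider list were listed in mesenchyme, against 5 and 13 in epithelium. The 5 genes were then the same in both tissues. This setting changes both the number and the strength of the intervals, and the cause was not tested. The shared mesenchyme intervals were then 6 of 8, and 5 of 10 in the top 50%, against 6 of 20 as reported; their number stayed within the limit, but their share did not. Within 1 kb of the start epithelium had 0 genes, and within 10 kb mesenchyme had 5. With shared intervals defined by peak centres within 100 bp, Ptch1 was no longer shared and the median log2 ratio was −0.83. With the average value it was −0.65. No paired analysis was possible because each group has 1 library. Weak intervals such as those at Shh and inside Ptch1 lie near the lower end of the mesenchyme list, and since the depth of the libraries is unknown, a gene without an epithelium interval is not shown to lack binding there.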

Other observations

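Some intervals within 100 kb of a gene start were not listed for that gene. Upstream of Ptch1 both tissues had an interval at the same place with no listed gene, at 61.8 kb from the start in epithelium (chr13:63728418-63728875) and 61.9 kb in mesenchyme (chr13:63728330-63729037). Downstream of Smo, at 36.8 kb from its start (taking Smo on the plus strand, as RefSeq does), both tissues had an interval listed for another gene, 4631427C17Rik, with peak values of 52 in epithelium (chr6:29721930-29722624) and 100 in mesenchyme (chr6:29721808-29722778). Upstream of Boc mesenchyme alone had an interval with no listed gene at 80.5 kb (chr16:44639104-44639773). No other such interval was found within 100 kb of the starts of Gli2, Gli3, Hhip and Sufu.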
